A study of Homo sapiens with 6 samples.

Results

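The 10 genes described here are the Toll-like receptors TLR1, TLR2, TLR4, TLR5, TLR6, TLR7 and TLR8, the accessory proteins CD14 and LY96, and the adaptor MYD88. They were chosen by symbol, as the receptors and adaptor through which the alarmin S100A9 and microbial ligands signal. The rule used no measured value, but earlier results of these data were known when it was set. They are 10 of 60612 gene identifiers in the count table. Of them 9 (all but TLR7) were among the 17224 genes with enough counts in enough libraries to be tested. RNA was sequenced from U937, an established human line of monocyte-like cells derived from a histiocytic lymphoma, labelled as acute myeloid leukemia with a WT genotype. The study's title names S100A9 as its target, and its comparison asks how a compound known only as B2 alters gene expression. The B2 group was 3 libraries of U937 cells kept in RPMI-1640 without serum and given 1 µM B2 for 36 h. The DMSO group was 3 libraries of the same cells in the same medium, given the vehicle DMSO for 36 h. All cells had been grown in medium with 10% fetal bovine serum beforehand. Every library is from 1 cell line, and the labels number the libraries 1 to 3 in each group without stating the meaning of a number or whether cultures were separate. The p-values therefore cover only the spread among these 6 libraries, part of which may be technical.

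Toll-like receptors are transmembrane proteins of myeloid and other cells whose outer leucine-rich repeats bind parts of microbes or host molecules released by stressed cells. TLR1, TLR2, TLR4, TLR5 and TLR6 act at the cell surface, while TLR7 and TLR8 act in endosomes, and bound receptors recruit the adaptor MYD88, which assembles IRAK kinases and leads to NF-kB and to the cytokine genes it drives. CD14 and LY96 belong to the receptor for lipopolysaccharide together with TLR4, the receptor through which S100A8 and S100A9 are known to signal in monocytes.

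The libraries numbered 3 stood apart from the other 4 in both groups. Across all tested genes, edgeR's quasi-likelihood test found differences between replicate numbers in 461 of 17224 genes (2.68%) at an adjusted p below 0.05, with treatment as a term in the fit. Library totals ran from 61150740 to 78431054 counts. The cells carried leukocyte transcripts throughout, with the leukocyte antigen PTPRC between 53.2 and 154 CPM (counts scaled to library size), the granule protease ELANE between 624 and 1307 CPM and myeloperoxidase (MPO) low at 0.281 to 1.67 CPM, whereas CD3D, CD3E, CD3G and MS4A1 of T and B cells were at 0 in every library. Markers of monocyte and macrophage maturation summed to 468, 378 and 2088 CPM in B2 libraries 1, 2 and 3, against 543, 343 and 2464 CPM in DMSO libraries 1, 2 and 3. In that list 7 of 8 tested markers (11 listed) differed between numbers and were highest in number 3, while the macrophage receptor MRC1 was at 0 in every library.

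Sequence upstream of the RefSeq start of 4 members is printed here, because CD14 and TLR8 were among the genes that differed between replicate numbers and TLR4 and MYD88 were not. Each is the 250 bases before the annotated start from RefSeq (GRCh38.p14), written 5′ to 3′ on the gene's strand, with matches to the searched motifs in capitals and those on the other strand shown as their reverse complement. The windows are chr5:140633176-140633425 on the minus strand for CD14, chrX:12906370-12906619 on the plus strand for TLR8, chr9:117704153-117704402 on the plus strand for TLR4 and chr3:38138411-38138660 on the plus strand for MYD88. RefSeq starts differ from the outer bounds of these genes in GENCODE 29, so the CD14 window lies wholly inside the GENCODE gene and most of the TLR4 and MYD88 windows do, while the TLR8 window lies wholly before it.
CD14: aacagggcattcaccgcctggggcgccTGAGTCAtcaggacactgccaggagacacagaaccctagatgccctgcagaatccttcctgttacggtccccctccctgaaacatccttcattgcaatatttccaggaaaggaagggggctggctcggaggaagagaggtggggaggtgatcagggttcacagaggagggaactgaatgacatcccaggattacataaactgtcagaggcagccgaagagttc
TLR8: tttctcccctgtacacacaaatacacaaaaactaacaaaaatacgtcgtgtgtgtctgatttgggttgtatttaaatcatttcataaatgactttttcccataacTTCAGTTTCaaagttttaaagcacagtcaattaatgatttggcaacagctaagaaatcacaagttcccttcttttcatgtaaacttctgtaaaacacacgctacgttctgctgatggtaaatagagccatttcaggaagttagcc
TLR4: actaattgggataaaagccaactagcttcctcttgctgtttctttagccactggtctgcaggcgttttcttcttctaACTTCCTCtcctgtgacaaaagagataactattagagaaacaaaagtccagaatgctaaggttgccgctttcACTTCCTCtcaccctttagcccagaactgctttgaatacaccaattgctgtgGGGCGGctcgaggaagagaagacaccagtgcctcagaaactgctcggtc
MYD88: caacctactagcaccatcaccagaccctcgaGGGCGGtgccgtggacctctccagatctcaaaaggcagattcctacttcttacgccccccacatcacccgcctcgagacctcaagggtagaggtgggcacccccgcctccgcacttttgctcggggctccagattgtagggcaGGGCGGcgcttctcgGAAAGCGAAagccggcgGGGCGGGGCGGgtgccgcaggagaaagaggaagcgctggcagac

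A set of 5 motifs was searched on both strands in the promoters of the 7 members with an entry (LY96, TLR1 and TLR7 had none), and the share of 35116 RefSeq promoters of the same length that hold each is given beside it. TGANTCA, the AP-1 element, was found in CD14 alone among the 7, at 223 to 217 bases before the start, and in 6.57% of all promoters. GAAANNGAA, the core of the interferon-stimulated response element, lay in TLR8 on the minus strand (145 to 137 bases before the start) and in MYD88 on the plus strand (61 to 53), against 6.88% of all promoters. GAGGAAGT, a site form bound by PU.1 and other ETS factors, was found in TLR4 only among the 7, in 2 copies on the minus strand (173 to 166 and 101 to 94 bases before the start), against 2.17% of all promoters. GGGCGG, the Sp1 box, was found in MYD88, TLR2, TLR4 and TLR5 and in 42.6% of all promoters, with the last 2 of 4 copies in MYD88 sharing 1 base. TTGCGCAA, a C/EBP palindrome, was in none of the 7 and in 0.131% of all promoters. No motif was held by both CD14 and TLR8. A match describes letters in the window and not binding.

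CD14 carries lipopolysaccharide to the TLR4 complex and is a classical monocyte antigen (chromosome 5, 140631728 to 140633701, minus strand; positions of genes are from GENCODE 29 on GRCh38). It had 0.772, 0.616 and 121 CPM in B2 libraries 1, 2 and 3, against 1.29, 0.360 and 109.6 CPM in DMSO libraries 1, 2 and 3. Both libraries numbered 3 were high and the other 4 were at 1.29 CPM or below, so the treatment groups overlapped throughout. In counts, the high libraries held 7309 with B2 and 8507 with DMSO, and the others 28 to 72. In bulk RNA, a gene carried by fewer cells and a gene with less RNA per cell cannot be told apart.

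LY96, or MD-2, is the secreted partner of TLR4 that binds the lipid part of lipopolysaccharide (chromosome 8, 73991352 to 74029087, plus strand). Its level was 2.13, 2.23 and 9.98 CPM in B2 libraries 1, 2 and 3, against 2.74, 1.17 and 11.9 CPM in DMSO libraries 1, 2 and 3. Libraries numbered 3 were again the high ones, by a far smaller factor than for CD14. TLR4, the signalling receptor of the complex (chromosome 9, 117704175 to 117724730, plus strand), had 22.5, 35.3 and 40.7 CPM in B2 libraries 1, 2 and 3, against 23.3, 56.7 and 47.0 CPM in DMSO libraries 1, 2 and 3. For TLR4 both libraries numbered 1 were lowest and DMSO library 2 was highest, so number 3 did not stand alone. Its exons share 558 bases with another annotated gene on the same strand (ENSG00000285082), so reads there are uncertain.

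TLR2 pairs with TLR1 or TLR6 to bind bacterial lipopeptides (chromosome 4, 153684070 to 153705702, plus strand). It had 6.54, 8.74 and 18.8 CPM in B2 libraries 1, 2 and 3, against 4.37, 11.8 and 14.4 CPM in DMSO libraries 1, 2 and 3. The libraries numbered 3 were the 2 highest, but DMSO library 2 lay only a little below DMSO library 3. TLR1, the partner for triacylated lipopeptides (chromosome 4, 38790677 to 38856817, minus strand), had 0.217, 0.534 and 4.01 CPM in B2 libraries 1, 2 and 3, against 0.502, 0.708 and 5.70 CPM in DMSO libraries 1, 2 and 3. Here the libraries numbered 3 were clearly separate from the other 4.

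TLR6, the partner for diacylated lipopeptides (chromosome 4, 38823715 to 38856817, minus strand), had 0.677, 1.08 and 1.32 CPM in B2 libraries 1, 2 and 3, against 0.430, 0.772 and 1.83 CPM in DMSO libraries 1, 2 and 3. Libraries numbered 3 were the highest of each group, narrowly so with B2. TLR1 and TLR6 are neighbours that share 57 exon bases on 1 strand, and 249 runs of 50 bases are identical between their transcripts (5.33% of the runs of TLR1 and 4.10% of those of TLR6), so the split of reads between them is uncertain. TLR5, the flagellin receptor (chromosome 1, 223109406 to 223143282, minus strand), had 0.460, 0.575 and 0.545 CPM in B2 libraries 1, 2 and 3, against 0.304, 1.45 and 1.21 CPM in DMSO libraries 1, 2 and 3. DMSO libraries 2 and 3 were the highest and DMSO library 1 the lowest, so the B2 libraries lay within the range of the DMSO libraries.

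TLR8, an endosomal receptor for single-stranded RNA (chromosome X, 12906620 to 12923169, plus strand), had 0.677, 0.561 and 11.2 CPM in B2 libraries 1, 2 and 3, against 0.412, 1.29 and 15.4 CPM in DMSO libraries 1, 2 and 3. The high libraries were again both of number 3. TLR7, its neighbour on chromosome X with a related ligand (12867083 to 12890380, plus strand), had 9 counts in B2 library 3 (0.149 CPM, exact Poisson 95% interval 0.0679 to 0.282), against 21 counts in DMSO library 3 (0.270 CPM, 0.167 to 0.413). It had 0 counts in the other 4 libraries, where 3 counts would be 0.0386 to 0.0537 CPM. These intervals and limits treat counts as independent reads and cover no other error. The values are estimated counts, so the intervals may be too narrow. TLR7 was not tested, because the filter on low counts asks for enough counts in 3 libraries and TLR7 had counts only in those numbered 3.

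MYD88, the adaptor of every Toll-like receptor but TLR3 (chromosome 3, 38138478 to 38143022, plus strand), had 151, 151 and 229 CPM in B2 libraries 1, 2 and 3, against 189, 124 and 281 CPM in DMSO libraries 1, 2 and 3. Both libraries numbered 3 were the highest, and DMSO library 2 was the lowest. The gene had at least 9671 counts in every library, so counting error is small beside the spread between libraries.

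**Figure D1:**
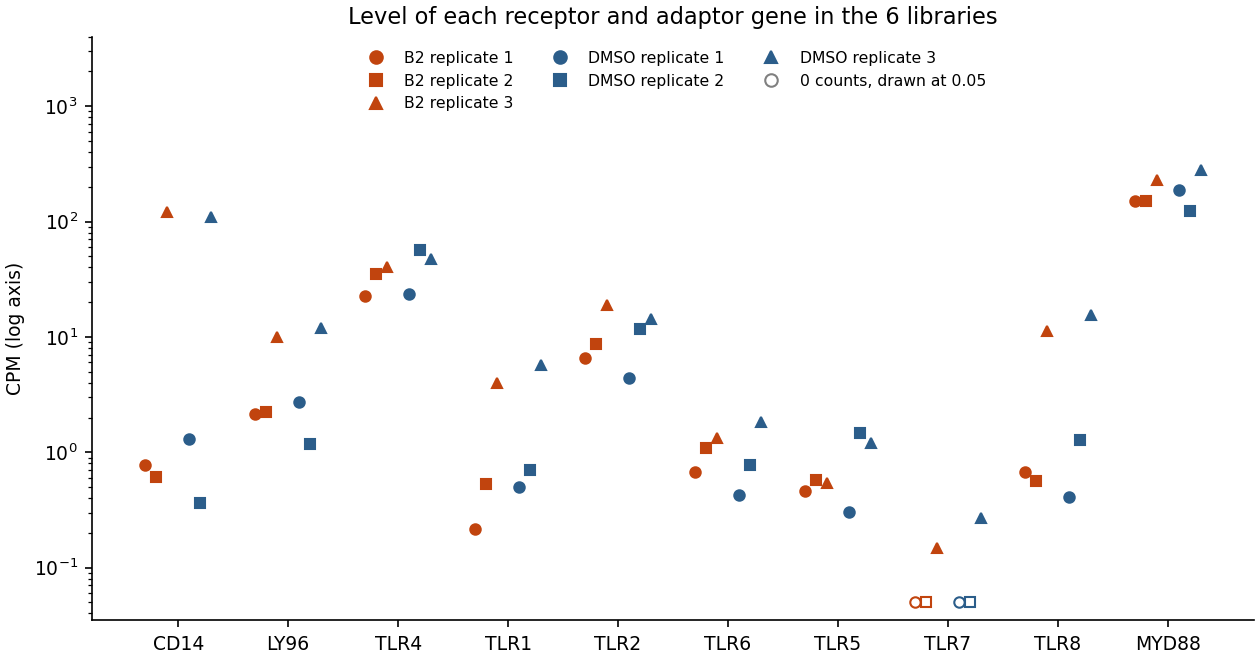
Level of each of the 10 genes in each library, in CPM on a log axis, with B2 libraries left of DMSO libraries, a marker shape for each replicate number and hollow markers at 0.05 for 0 counts. CD14, TLR8, TLR1 and LY96 show the libraries numbered 3 far above the other 4, while TLR4 and TLR5 do not.

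Levels of different genes were compared per kilobase of exon. MYD88 was the highest of the 10 in 5 of 6 libraries, with 37.8, 37.8 and 57.4 CPM per kilobase in B2 libraries 1, 2 and 3, against 47.4, 31.2 and 70.4 CPM per kilobase in DMSO libraries 1, 2 and 3. In B2 library 3 CD14 ranked above it, at 63.9 CPM per kilobase, and in DMSO library 3 CD14 came next at 58.1 CPM per kilobase. LY96 ranked directly below MYD88 in both libraries numbered 1 and below the pair of MYD88 and CD14 in both libraries numbered 3, with 3.50 and 16.4 CPM per kilobase in B2 libraries 1 and 3, against 4.51 and 19.6 CPM per kilobase in DMSO libraries 1 and 3. TLR5 and TLR6 stayed at or below 0.303 CPM per kilobase in every library, and TLR7 was last in all 6. Neighbours often lay close and changed places between libraries, since TLR2 ranked above TLR4 in B2 library 3 and below it in the other 5. TLR4 and TLR8 were at 3.07 and 2.57 CPM per kilobase in B2 library 3, and at 3.54 and 3.54 in DMSO library 3.

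The balance of CD14, LY96 and TLR4 transcripts differed between libraries, and no protein was measured. Per kilobase of exon, CD14 stood at 0.241, 0.123 and 20.8 times TLR4 in B2 libraries 1, 2 and 3, against 0.389, 0.0448 and 16.4 times in DMSO libraries 1, 2 and 3. LY96 stood at 2.07, 1.38 and 5.36 times TLR4 in B2 libraries 1, 2 and 3, against 2.57, 0.452 and 5.52 times in DMSO libraries 1, 2 and 3. LY96 exceeded TLR4 only per kilobase (607 exon bases against 13272), since in CPM TLR4 was higher in every library. Thus CD14 transcripts exceeded TLR4 transcripts in the libraries numbered 3 and were below them in the other 4, in both groups.

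**Figure D2:**
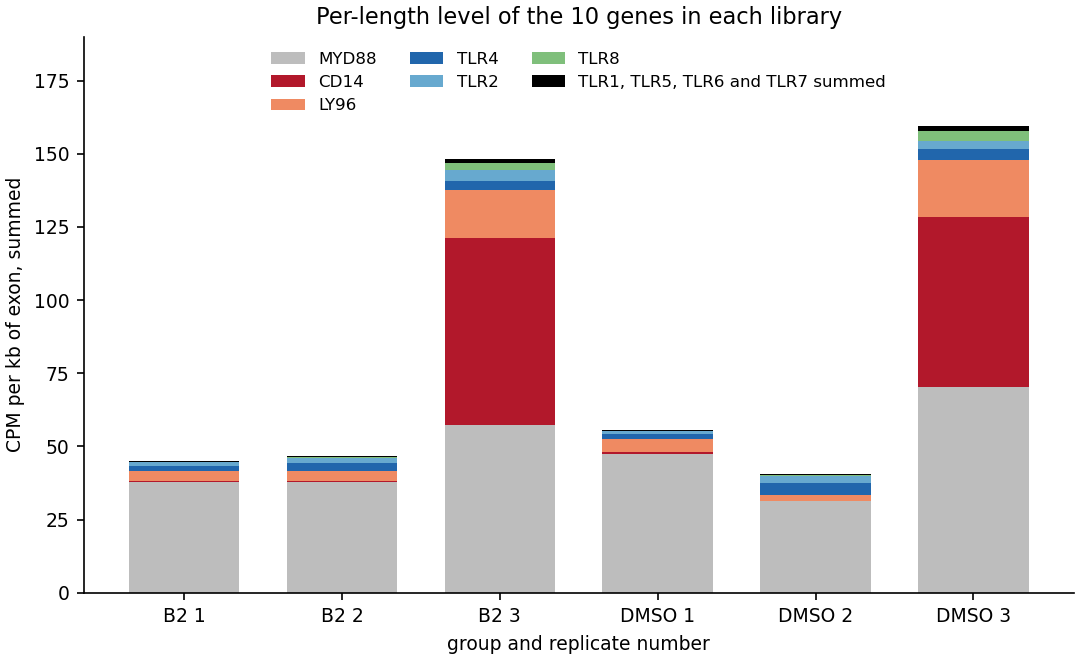
Stacked bars of the level of each gene per kilobase of exon in each library (CPM per kilobase), B2 libraries left of DMSO libraries, with TLR1, TLR5, TLR6 and TLR7 summed. MYD88 is highest in 5 libraries, and CD14 reaches 63.9 in B2 library 3 and 58.1 in DMSO library 3.

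None of the 9 tested genes passed the test between B2 and DMSO. The edgeR test called 0 of 17224 genes (0%) at an adjusted p below 0.05, 85 genes had an unadjusted p below 0.05, DESeq2 called 3 genes and limma-voom 0, and none of these called genes was a member. DESeq2 gave CD14 and TLR8 no p-value for treatment, so its count does not bear on these genes. Each of the 9 had an adjusted p of 1.00. CD14, TLR2 and TLR6 had positive log2 fold changes and the other 6 negative ones, with a median of -0.16, beside a median of -0.08 over all tested genes. For all 10 genes the B2 and DMSO libraries overlapped, where 614 of 17224 genes (3.56%) had groups that did not.

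The size of error differed strongly between members. CD14 averaged 40.7 ± 69.2 CPM with B2 and 37.1 ± 62.8 CPM with DMSO (SD, n = 3 each). Its log2 fold change was 0.13, with a standard error (SE) of 2.15 and a 95% interval from -4.80 to 5.07. TLR8 averaged 4.14 ± 6.09 CPM with B2 and 5.70 ± 8.41 CPM with DMSO, a log2 fold change of -0.47 (SE 1.43, interval -3.74 to 2.81). Both intervals span differences of many fold in either direction, and in each group library 3 lay far from the other 2. Without B2 replicate 3 the CD14 estimate was -5.74, and without DMSO replicate 3 it was 5.63, neither of which passed. At the other end, MYD88 averaged 177 ± 45.1 CPM with B2 and 198 ± 78.6 CPM with DMSO, a log2 fold change of -0.16 (SE 0.35, interval -0.97 to 0.64). TLR4 averaged 32.8 ± 9.37 CPM with B2 and 42.4 ± 17.2 CPM with DMSO, a log2 fold change of -0.37 (SE 0.39, interval -1.26 to 0.53). The median SE over all genes was 0.41.

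Of the remaining genes, TLR5 had the most negative estimate, averaging 0.527 ± 0.0592 CPM with B2 and 0.990 ± 0.606 CPM with DMSO, a log2 fold change of -0.91 (SE 0.61, interval -2.31 to 0.48). TLR1 had a log2 fold change of -0.55 (SE 1.19), LY96 of -0.14 (SE 0.90), TLR2 of 0.16 (SE 0.54) and TLR6 of 0.02 (SE 0.59). The LY96 estimate changed sign with the replicate number as a block, and the TLR6 estimate with counts divided by 4. The 95% interval of each of these 5 estimates spanned 0.

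With the replicate number as a block, SEs were smaller for the genes that differ between numbers and no gene was called (228 had an unadjusted p below 0.05). CD14 was at 0.03 (SE 0.33) and TLR8 at -0.36 (SE 0.37) on the log2 scale. TLR1 was at -0.67 (SE 0.36, unadjusted p = 0.0882) and TLR5 at -0.68 (SE 0.56). Within numbers 1, 2 and 3, the B2 level of TLR1 was 0.432, 0.754 and 0.703 times the DMSO level, and that of TLR4 was 0.964, 0.623 and 0.866 times. TLR1 and TLR4 were the 2 tested genes of the 9 with B2 below DMSO in all 3 numbers, and none was above in all 3. The share of all tested genes with the same direction in all 3 numbers was not counted. This count is therefore not read as an effect of B2 on these genes. MYD88 was at 0.799, 1.21 and 0.815 times the DMSO level in numbers 1, 2 and 3. Epithelial markers, which are foreign to a myeloid line, summed to 26.2, 26.4 and 29.9 CPM in B2 libraries 1, 2 and 3, against 1.22, 7.83 and 23.2 CPM in DMSO libraries 1, 2 and 3. All 5 had positive log2 fold changes and none passed the test, and their part in the values of the 10 genes was not tested.

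**Figure D3:**
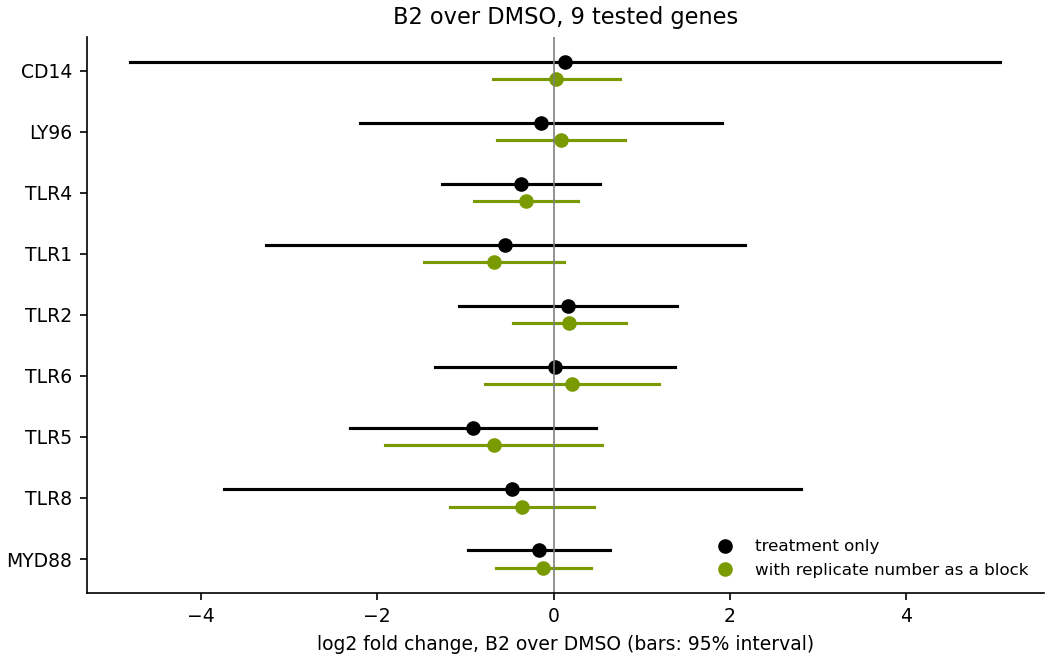
Log2 fold change of B2 over DMSO for the 9 tested genes, with 95% intervals, without and with the replicate number as a block. Every interval spans 0, and those of CD14, TLR8 and TLR1 narrow with the block.

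Between replicate numbers, 4 of the 9 tested genes differed: CD14, TLR8, TLR1 and LY96, each highest in number 3. Adjusted p-values of the edgeR test over the 3 numbers were 2.27e-06 for CD14, 0.000129 for TLR8, 0.000563 for TLR1 and 0.00376 for LY96, against 2.68% of all tested genes called. TLR2 had 0.0771, TLR4 0.170, MYD88 0.194, TLR6 0.232 and TLR5 0.462, none of which passed. TLR2 passed in 9 of 16 settings of this test, and MYD88 in 1, without B2 replicate 1 (adjusted p = 0.0336). Both libraries numbered 3 lay above the other 4 for 8 of the 10 genes (7 of the 9 tested), all but TLR4 and TLR5, where 12.3% of tested genes show this. That number 3 stands apart was known from earlier results of these data when the genes were chosen.

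In number 3 over number 1, 5 of 9 genes were higher: CD14, TLR8, TLR1, LY96 and TLR2 (1.81% of all tested genes were). CD14 was higher by 6.81 on the log2 scale (SE 0.48, adjusted p = 3.01e-05), TLR8 by 4.53 (SE 0.50, adjusted p = 0.000414) and TLR1 by 3.82 (SE 0.48, adjusted p = 0.000943). LY96 was higher by 2.17 (SE 0.41, adjusted p = 0.0183) and TLR2 by 1.61 (SE 0.36, adjusted p = 0.0459), both nearer to the threshold. LY96 missed the threshold without DMSO replicate 3 (adjusted p = 0.259), without DMSO replicate 1 (0.140), without B2 replicate 1 (0.0710) and with library totals as scaling (0.0532). TLR2 also missed it without B2 replicate 3 or DMSO replicate 1 or 3, and with library totals or no filter on low counts.

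In number 3 over number 2, the same 4 genes as in the test over all numbers were higher (2.42% of all tested genes were). CD14 was higher by 7.88 on the log2 scale (SE 0.51), TLR8 by 3.88 (SE 0.48), TLR1 by 2.96 (SE 0.46) and LY96 by 2.70 (SE 0.43). TLR2 was at 0.67, MYD88 at 0.88 (adjusted p = 0.134, but 0.0355 with DESeq2) and TLR6 at 0.80, without passing. TLR4 was at -0.04 and changed sign under RLE scaling and other settings, and TLR5 was at -0.19. In number 2 over number 1 none of the 9 genes was called, beside 0.0523% of all tested genes, and CD14 was at -1.08 and TLR5 at 1.20. CD14 passed in this contrast without B2 replicate 1 (adjusted p = 0.0230). With both libraries numbered 3 left out, an alternative chosen after seeing the data, 0 of the 9 were called between numbers 2 and 1, where 105 genes were, against 9 genes with all libraries.

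For each of the 4 called genes library 3 was the highest in both treatment groups, while libraries 1 and 2 changed places between the groups for TLR8 and LY96. CD14 in library 3 was 156 times its level in library 1 and 196 times that in library 2 with B2, against 85.0 and 304 times with DMSO. The mean CD14 level was 115 CPM in number 3, 1.03 CPM in number 1 and 0.488 CPM in number 2. Means over both groups gave ratios of number 3 over number 1 of 24.4 for TLR8, 13.5 for TLR1 and 4.49 for LY96, while MYD88 was at 1.50 and TLR4 at 1.92. The summed macrophage markers were also highest in both libraries numbered 3, and their part in these differences was not tested.

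**Figure D4:**
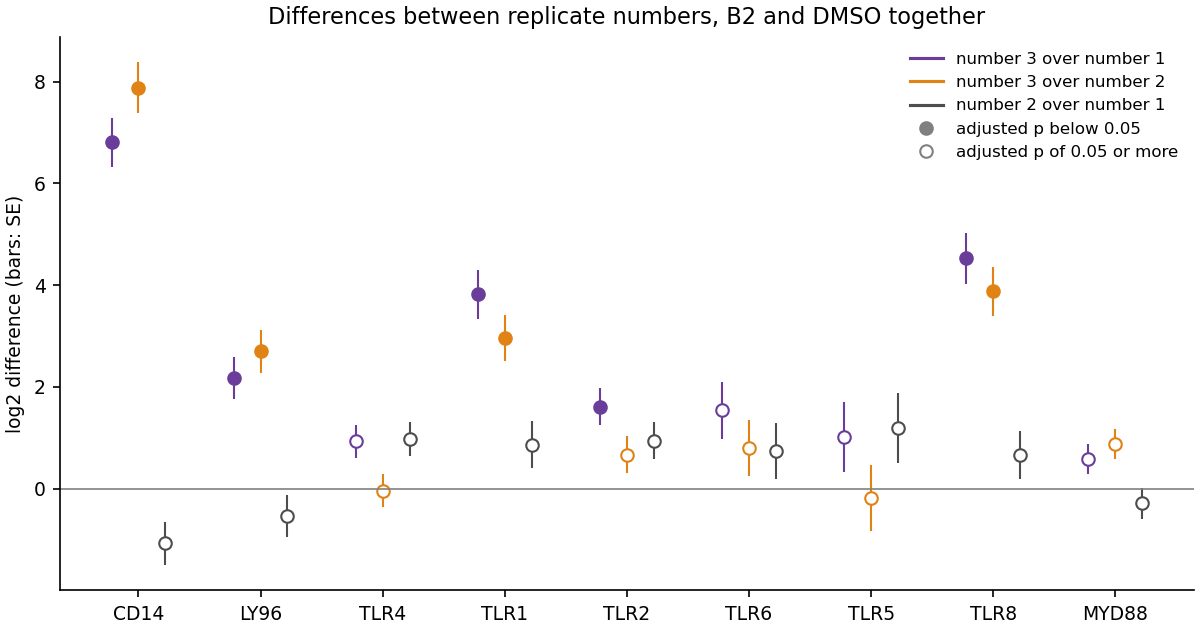
Log2 differences between replicate numbers for the 9 tested genes with SE bars, B2 and DMSO libraries together, filled where the adjusted p was below 0.05. CD14, TLR8, TLR1 and LY96 are filled for number 3 over both other numbers, and no gene is filled for number 2 over number 1.

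Of 84 further genes of the pathway, 76 were tested, and none was called between B2 and DMSO (22 positive, 54 negative, median -0.12) with or without the replicate block. Across numbers 14 of the 76 were called, all highest in number 3, beside 2.68% of all tested genes. Median log2 differences were 0.49 for number 3 over number 1 and 0.52 for number 3 over number 2, beside 0.05 and -0.12 over all tested genes.

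Of 6 tested adaptors 0 were called, and of 18 kinases and ubiquitin ligases 0 were called, counts too small to be set apart from the 2.68% of all tested genes. The adaptor TICAM1, which serves TLR3 and TLR4, had 23.2, 19.4 and 39.8 CPM in B2 libraries 1, 2 and 3, against 31.3, 17.8 and 38.5 CPM in DMSO libraries 1, 2 and 3. IRAK4, the kinase that MYD88 recruits, had 6.35, 12.4 and 9.31 CPM in B2 libraries 1, 2 and 3, against 6.70, 23.5 and 9.56 CPM in DMSO libraries 1, 2 and 3. Among other Toll-like receptors, TLR9 (a DNA receptor, 0.330 to 1.61 CPM) was the 1 gene tested and was not called, and TLR3 and TLR10 stayed at or below 0.244 CPM.

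Of 7 tested chaperones and trafficking factors 1 was called, the scavenger receptor CD36, a co-receptor of TLR2 and TLR6, with 9.79, 14.4 and 107 CPM in B2 libraries 1, 2 and 3, against 16.0, 13.4 and 176 CPM in DMSO libraries 1, 2 and 3 (adjusted p = 8.1e-05). The share over all tested genes was 2.68%, from which 1 of 7 is too small a count to be set apart. The trafficking protein of endosomal receptors UNC93B1 was at 121 to 258 CPM and was not called. Of 14 tested cytokines and targets 6 were called, beside 2.68% of all tested genes: CXCL8, CCL2, CCL3, NFKBIZ, IL1B and ICAM1. The neutrophil chemokine CXCL8 had 3.03, 3.58 and 40.5 CPM in B2 libraries 1, 2 and 3, against 3.01, 5.09 and 55.4 CPM in DMSO libraries 1, 2 and 3, and the nuclear regulator NFKBIZ had 2.49, 3.57 and 20.8 CPM in B2 libraries 1, 2 and 3, against 1.33, 6.06 and 22.3 CPM in DMSO libraries 1, 2 and 3. Both genes were high in the 2 libraries numbered 3. IL6 stayed at 0.650 to 0.896 CPM.

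Of 12 transcription factors 2 were called, RELB, an NF-kB subunit, and IRF7, an interferon regulatory factor downstream of TLR7 and TLR8. IRF7 had 10.3, 9.07 and 99.7 CPM in B2 libraries 1, 2 and 3, against 15.3, 9.13 and 88.8 CPM in DMSO libraries 1, 2 and 3 (adjusted p = 0.000133). NFKB1 had 50.5 to 82.8 CPM and was not called (adjusted p = 0.870). Of 11 tested inhibitors 2 were called, the ubiquitin editor TNFAIP3 (adjusted p = 0.0493) and the ribonuclease ZC3H12A (adjusted p = 0.0123). Each of these counts of 2 is small and stands beside 2.68% of all tested genes. A list of S100A9, related alarmins and receptors held 7 genes, of which S100A8, S100A9 and S100A12 were called, beside 2.68% of all tested genes. S100A9 had 25.5, 20.2 and 670 CPM in B2 libraries 1, 2 and 3, against 37.1, 17.6 and 603 CPM in DMSO libraries 1, 2 and 3. AGER, the receptor RAGE, stayed at 4.25 to 5.48 CPM.

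**Figure D5:**
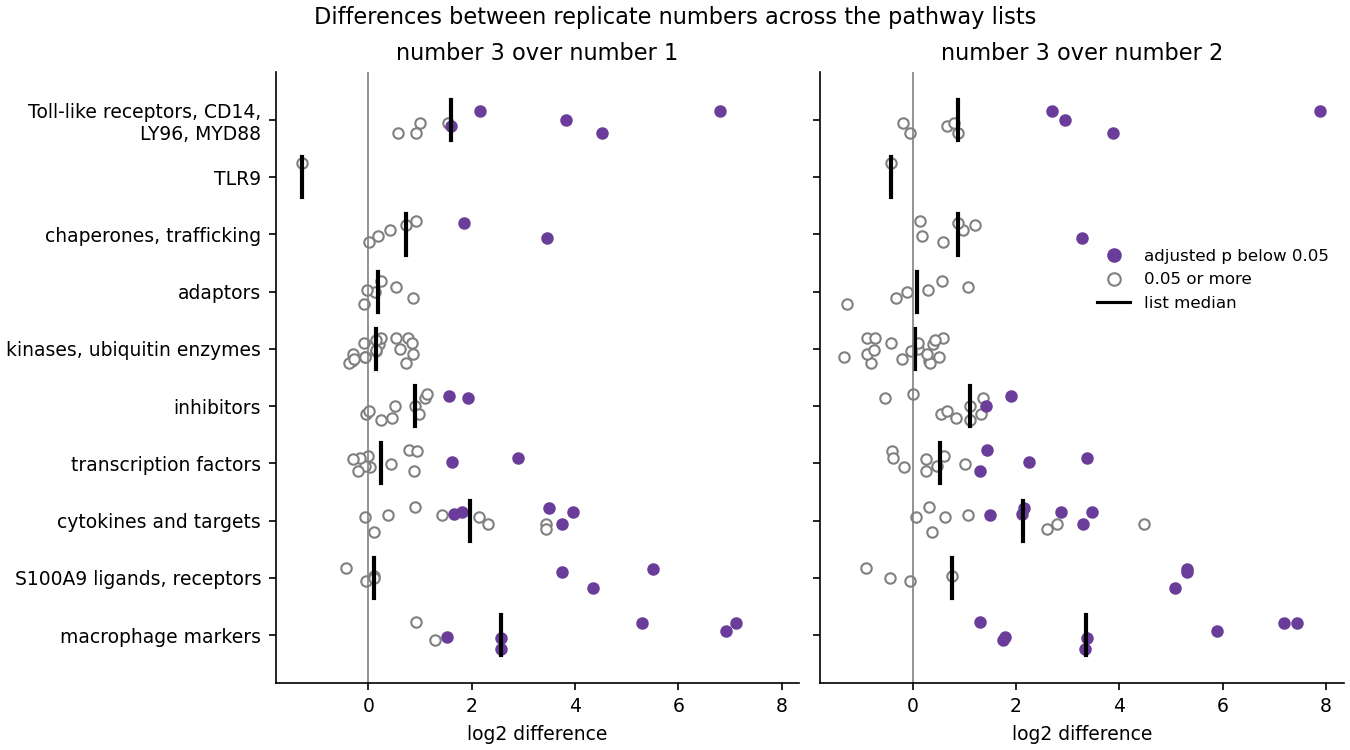
Log2 differences of number 3 over number 1 and of number 3 over number 2 for the tested genes of each list, with filled points for an adjusted p below 0.05 and a bar for each list's median. The adaptors and kinases hold no filled point, while cytokines and targets hold several.

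The gene nearest to each member in its pattern over the 6 libraries was found by Euclidean distance between centred log2 CPM among 13208 tested protein-coding genes, a description without a test. CD14 was nearest to C1QC, a complement component of macrophages, at a distance of 0.759, with 44.7 CPM in B2 library 3, against 39.5 CPM in DMSO library 3. TLR8 was nearest to the interferon-induced gene IFIT1 (0.772), TLR1 to the secreted ribonuclease RNASE1 (0.537) and LY96 to the chemokine gene CCL3L3 (0.274). MYD88 lay nearest of all, at 0.0854 from ZBTB47, and TLR4 at 0.151 from SH3YL1. TLR2 was nearest to SLC4A8 (0.316), TLR6 to the DNA ligase gene LIG4 (0.322) and TLR5 to KLKB1 (0.362), whose exons overlap those of CYP4V2. A small distance is easier to reach for a gene with little spread.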

How the data were processed

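RNA sequencing of 6 U937 libraries (3 with B2, 3 with DMSO) was analysed from 1 deposited table. The values are expected counts (estimated counts) for 60612 Ensembl identifiers, as the authors deposited them, not normalized. Reads were aligned with HISAT2 2.0.4, per the submitters' processing notes, while for counting, the tool, the build, the gene models and strandedness were not given in the sources used here. All deposited values were whole, so none was altered by rounding. The value 4 occurred 6465 times, against 3144 for 3 and 2022 for 5, so small counts are less exact than their size implies.

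Symbols were found for 60401 identifiers in a gene name table, and positions for 58394 in GENCODE 29 (GRCh38). Genes were kept by filterByExpr (minimum count 10, minimum total 15), applied by treatment group with 3 replicates per group. Genes with counts almost only in the libraries numbered 3 could therefore be left out, and shares over tested genes do not cover them. CPM values are counts over TMM-scaled totals (factors 0.86 to 1.07). EdgeR 4.0.16 (R 4.3.3, glmQLFit and glmQLFTest) tested B2 against DMSO with treatment as the only term, and replicate numbers with treatment as a term, adjusted by Benjamini-Hochberg over the 17224 genes, with calls below 0.05. Scripts were tested on simulated data. Alternatives were RLE and upper-quartile factors, library totals, no filter and a stricter one (50 counts in 3 libraries), counts divided by 4, DESeq2 1.42.0, limma-voom (limma 3.58.1), the replicate block and libraries left out.

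After subtracting group means, libraries with the same number correlated across genes at 0.21, 0.40 and 0.50 for numbers 1, 2 and 3. Each exceeded 0.1, the limit set for treating same-numbered libraries as pairs. The fit with treatment as the only term was still kept as the main one, as planned, and the fit with the replicate block is given beside it. The pairing is read from the data and not from the labels, and the 3 values are not independent because deviations sum to 0 within a group. With number 3 apart in both groups, the values for numbers 1 and 2 also rise. The check therefore cannot show that libraries numbered 1 or 2 are pairs.

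Named were all members, per pathway list up to 4 genes with the smallest p across numbers and up to 2 with the smallest p for treatment, S100A8 and S100A9, and the nearest gene in pattern to each member. IL1B, ICAM1, TLR3, TLR10 and the cell type markers CD3D, CD3E, CD3G, MS4A1, MPO and MRC1 were named outside this rule after their values were seen. Members and lists were chosen with earlier results of these data known. Protein identity between members was not computed, since no protein table was used.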

Additional observations from a re-analysis of the deposited data

How the results depend on the processing

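No member was called between B2 and DMSO under any setting that gave it an adjusted p. DESeq2 gave none for CD14 and TLR8, TLR5 was not tested with the stricter filter, and TLR7 was tested under few settings. CD14, TLR8, TLR1 and LY96 were called across numbers under all 16 settings run. TLR2 was called across numbers under 9 of 16 and MYD88 under 1, without B2 replicate 1, so that 4 to 6 members were called when 1 library was left out. The count of genes called between B2 and DMSO (0) was 3 with DESeq2, 0 to 1 without 1 library, and 48, with 0 members, when both libraries numbered 3 were left out with the replicate block. The block with all libraries changed no call. Across numbers, the count of 461 genes became 956 with RLE factors, 1168 with upper-quartile factors, 266 with library totals, 2078 with the stricter filter, 2379 with counts divided by 4, 1671 with DESeq2 and 1278 with limma-voom, and 388 to 4124 without 1 library. Number 2 over number 1 had 105 genes instead of 9 without number 3. The log2 fold changes of B2 over DMSO reversed for LY96 to 0.0889 with the replicate block and 0.0752 with limma-voom, for CD14 to -0.0503 with limma-voom, and for TLR6 to -0.0150 with counts divided by 4. Without number 3, CD14 was at -0.24, LY96 at 0.16 and TLR2 at -0.0790, and with the block as well CD14 at -0.00046 and LY96 at 0.28. Without 1 library CD14 ran from -5.74 to 5.63, TLR8 from -3.20 to 2.27, TLR1 from -2.62 to 1.38, LY96 from -1.28 to 1.29, TLR6 from -0.33 to 0.76, TLR2 from -0.41 to 0.49, and MYD88 from -0.43 to 0.17. TLR4 in number 3 over number 2 (-0.04) became 0.0455 with RLE factors, 0.0248 with upper-quartile factors and 0.0248 with no filter, 0.0222 with the stricter filter, 0.0224 with counts divided by 4 and 0.0342 with DESeq2. Without 1 library it ran from -0.20 to 0.29, TLR5 in the same contrast from -0.61 to 0.45, and TLR8 in number 2 over number 1 from -0.0673 to 1.31. MYD88 in number 3 over number 2 and CD14 in number 2 over number 1 passed the threshold without B2 replicate 1, MYD88 also with DESeq2 (adjusted p = 0.0355). Library totals moved the median of all genes by -0.12 in number 3 over number 2 and by 0.18 in number 2 over number 1, and RLE and upper-quartile factors moved the last by -0.12 and -0.11. The cause of these shifts was not tested. Precision of low genes is limited by depth, since 3 counts were 0.0386 to 0.0537 CPM.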
